A study of Bos taurus with 8 samples.

Results

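The genes described here carry fatty acids from the blood into the mammary gland and join them into the triglyceride of milk fat: LPL, CD36, VLDLR, SLC27A6, FABP3, ACSL1, GPAM, LPIN1, DGAT1 and DGAT2. Their probes were chosen by the gene symbol or reference accession in the scanner files, and control spots were left out. This gave 30 probes of 9 genes, among 43653 probes in all. LPIN1, 1 of the 10 genes named, had 0 probes under that rule, and 3 probes described as lipin 1 under another transcript identifier are given apart. The cows were healthy lactating Holstein Friesian animals, a dairy breed. The 4 cows of high milk yield came from a group averaging 11097 kg per lactation, and the 4 of low yield from a group averaging 6956 kg. Total RNA from 1 part of each cow's gland was labelled with Cy3 or Cy5, a green and a red dye. Each array of 2 colours compared a high-yield cow directly with a low-yield cow in an equal lactation, and each of 4 such pairs was measured on 2 arrays with the dyes exchanged. Lactation II was that of pairs 1 and 2, while pairs 3 and 4 were sampled in lactation IV. Age and day of lactation are not given in the sources used here.

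In the lactating gland, lipoprotein lipase splits the triglyceride of circulating lipoproteins at the capillary wall. The freed fatty acids enter the secretory cells through membrane transporters, are held by a binding protein in the cytosol and are activated by coupling to coenzyme A. Acyltransferases then place them on a glycerol backbone step by step, and the finished triglyceride is packed into droplets that leave the cell as milk fat globules. These genes are known for high expression in the secreting gland, and several of them are also active in fat and muscle.

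Each probe was 60 bases long. The 6 probes below lie in coding sequence of 5 of the genes and are shown as examples. None is the brightest of its gene, and the results by gene rest on the brightest probes. Their letters come from the deposited scanner files, and the files place them on build HGSC Btau_3.1. Capitals mark the stop triplet that closes the reading frame in the GPAM and ACSL1 probes shown. The first FABP3 probe spans an intron, with its ends at chr2:126266316-126267866, and the second lies at chr2:126264175-126264234. The LPL probe lies at chr8:70194097-70194156, the GPAM probe at chr26:33101188-33101247 and the ACSL1 probe at chr27:16494794-16494853. No position was listed for the CD36 probe.
FABP3, A_73_P109351: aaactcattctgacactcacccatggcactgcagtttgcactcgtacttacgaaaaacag
FABP3, A_73_P378211: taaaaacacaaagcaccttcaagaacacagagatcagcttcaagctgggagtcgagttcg
LPL, A_73_P102541: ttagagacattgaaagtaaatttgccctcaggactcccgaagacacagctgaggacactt
CD36, A_73_P283206: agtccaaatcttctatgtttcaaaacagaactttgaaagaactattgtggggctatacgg
GPAM, A_73_P250886: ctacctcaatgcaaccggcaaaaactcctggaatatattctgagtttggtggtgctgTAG
ACSL1, A_73_P059661: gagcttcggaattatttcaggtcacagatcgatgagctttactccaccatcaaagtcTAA

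The scanner software called 22027 to 42482 probes well above background in a channel, and 29867 probes passed the filter on dim probes. The filter kept 27 of the 30 probes, at least 2 for each of the 9 genes. The other 3, of DGAT1, DGAT2 and SLC27A6, were well above background in 7, 10 and 4 of 16 channels. A ratio is that of the high-yield to the low-yield cow of a pair on the log2 scale, so that 1 stands for a doubling. The replicate is the cow pair, and p-values measure the spread between 4 pairs. Levels of single cows are log2 intensities rebuilt from each array's mean intensity and ratio. The low-yield cow of pair 1 stood apart from the other 7 cows in these genes, and results are therefore given with and without its pair.

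The first comparison asked whether these genes differed between cows of high and low yield. In pair 1 the normalised ratio was above 0 at 27 of 27 kept probes, and in pairs 2, 3 and 4 at 3, 2 and 2 of them. Before normalisation the order of the cows could differ on an array, as at the brightest GPAM probe in pair 1 with the high-yield cow in Cy3. Its intensities net of background there were 3753 for the high-yield and 13045 for the low-yield cow, and its normalised ratio was 2.31. For the brightest FABP3 probe they were 33530 and 2701. FABP3 was 185-fold higher in the high-yield cow of pair 1, LPL 45.1-fold and GPAM 8.79-fold. Over pairs 2 to 4 LPL was 6.88-fold lower in the high-yield cows, GPAM 6.11-fold lower and FABP3 3.19-fold lower. Over the 4 pairs the means were 0.63 for FABP3, -0.71 for LPL and -1.17 for GPAM, each smaller in size than its SD. Of the 27 probes 0 passed the test (limma, adjusted p between 0.742 and 0.996), with 0% of all kept probes called. At an unadjusted p under 0.05 the count was also 0 of 27, where 2.51% of all kept probes were higher and 3.93% lower. The same sign in 4 of 4 pairs was found at 0 of 27 probes, against 18.5% of all kept probes. The levels of the 2 yield groups overlapped at 27 of 27 probes, where 0.877% of all kept probes had all high-yield cows above all low-yield cows and 2.26% had them below. Such a p does not show that the genes did not differ, since the SD over pairs reached 4.90 at one FABP3 probe.

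The pairs were then read one at a time. In pair 1 all 27 probes were above 0, where 46.7% of all kept probes were, and for pairs 2, 3 and 4 those shares were 52.7%, 47.1% and 48.7%. In pair 1, 18 of the 27 had a ratio of 2 or more, against 2.63%. Their medians in pairs 1 to 4 were 2.52, -0.82, -0.86 and -0.66, and the medians of all kept probes lay between -0.04 and 0.02. At 22 of 27 probes pair 1 was above 0 and the other 3 pairs below 0, a pattern held by 9.98% of all kept probes. The 5 exceptions were both kept probes of SLC27A6, both of DGAT2, and the brighter probe of DGAT1. By the brightest probe, the pattern was held by 6 of the 9 genes. It was also held by 8 of 9 milk secretion markers, among them caseins, so it was not particular to the fatty acid genes. The medians of those markers in pairs 1 to 4 were 7.10, -1.07, -0.59 and -1.04. Within a gene, the kept probes had 1 sign in 35 of 36 combinations of gene and pair, the exception being DGAT1 in pair 2.

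**Figure D1:**
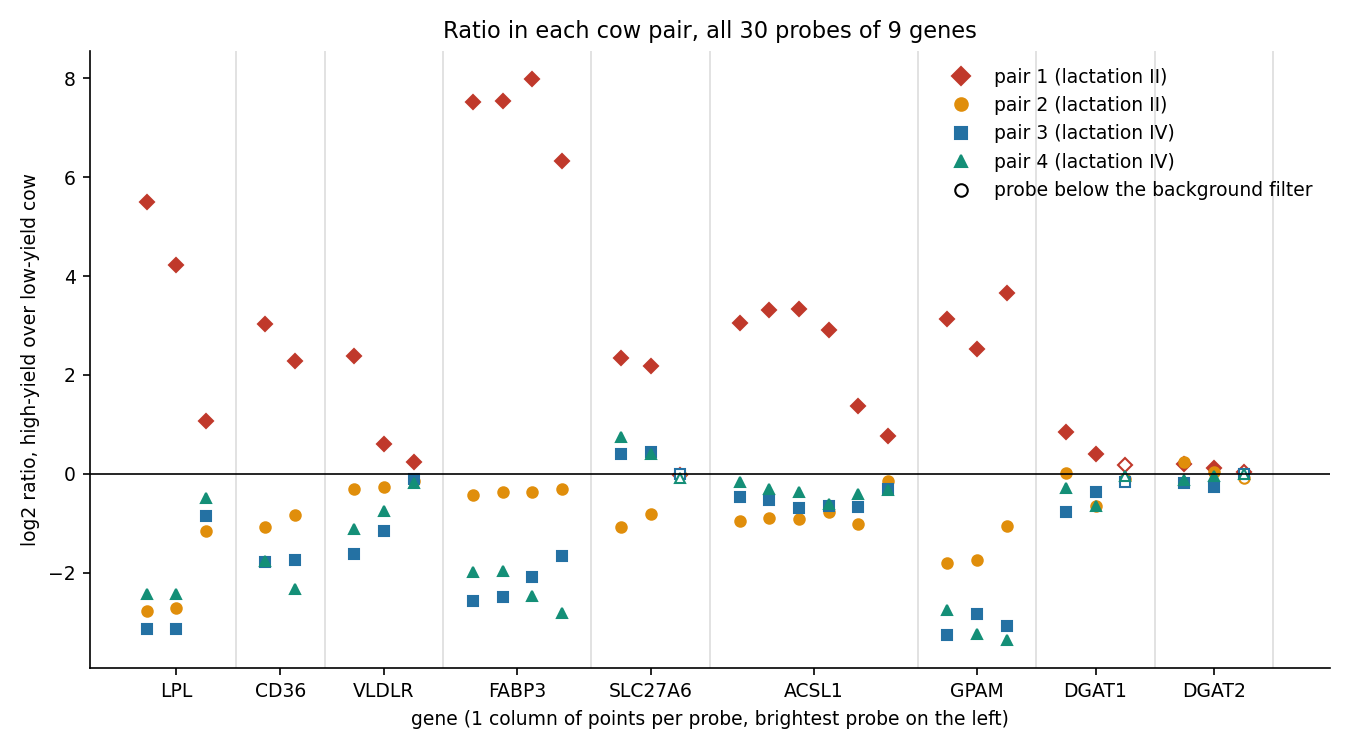
Log2 ratio of the high-yield to the low-yield cow (vertical axis) for each of the 30 probes, by gene (horizontal axis), with 1 symbol per cow pair and open symbols for the 3 probes below the filter. The pair 1 diamonds of FABP3 reach 7.99 while those of the other pairs lie below 0, and the points of DGAT2 stay between -0.26 and 0.24.

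Without pair 1, the ratio was below 0 in 3 of 3 pairs at 22 of 27 probes, against 20.2% of all kept probes. Over pairs 2 to 4, 20 of 27 probes had an unadjusted limma p under 0.05 and were lower in the high-yield cows, where 7.08% of all kept probes were, and 0 were higher, where 5.04% were. Probes of a gene are repeat measures of it in the same cows. By the brightest probe, 6 of 9 genes were lower in 3 of 3 pairs and 6 of 9 had an unadjusted limma p under 0.05. None of the 27 passed the limma test over all probes (lowest adjusted p = 0.386, with 0% of all kept probes called). A mean of -2 or below was found at 5 of 27 probes, 2 of LPL and 3 of GPAM, and at 0.0603% of all kept probes. Pair 1 was left out with these results in view, so the counts are a description of pairs 2 to 4.

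The levels show which cow of pair 1 was unlike the rest in the fatty acid genes. Its low-yield cow had the lowest level of the 8 cows at 23 of 27 probes, where 24% of all kept probes had theirs, and in 8 of 9 genes by the brightest probe. The summed level of the 9 genes was 13.51 in that cow, between 17.35 and 18.50 in the remaining 3 low-yield cows and between 15.58 and 18.14 in the high-yield cows. The sum over 9 milk secretion markers, among them the caseins, was likewise lowest there, at 16.26, against 20.68 to 20.92 in the 3 others of low yield and 19.70 to 22.37 in the high-yield cows. CSN2, the beta casein gene, stood at 14.02 in that cow and at 16.67 or more in the other 7. It was highest in the high-yield cow of pair 1, at 19.47, and that cow was also highest of the 8 at each other milk secretion marker. In those markers both cows of pair 1 were thus at an extreme. KRT18, a keratin of luminal epithelium, stood at 13.78 in pair 1's low-yield cow, above the other 7. KRT8 (15.34), EPCAM (13.64) and CDH1 (13.62) of that list were likewise highest there. ELF5 (12.69) and EHF (8.94), transcription factors of the same list, were lowest there, and KRT19, CLDN4 and PROM1 were neither. These luminal genes beside KRT18 were named after their values were seen. The summed level of the 9 luminal epithelium markers was 16.90, against 15.97 to 16.20 in the 3 others of low yield and 16.45 to 17.04 in the high-yield cows. The part of gland secretory state or cell makeup in the ratios of the fatty acid genes was not tested, and in bulk tissue fewer cells of a type and less RNA per cell cannot be told apart.

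The 8 kept adipocyte markers summed to 13.26 there, to 13.92 to 14.34 in the 3 others of low yield and to 14.43 to 14.71 in the high-yield cows. GPD1 of that list, an enzyme that also supplies glycerol phosphate, stood at 10.65 there and at 13.42 or more in the other 7. LEP, LIPE and PPARG were also lowest there. PLIN1 (6.66) was highest of the 8 cows there, CFD (12.82) and RBP4 (8.37) were below 1 other cow only, and CIDEC (7.10) was neither highest nor lowest. These genes were named after their values were seen. ADIPOQ, the adipocyte hormone adiponectin, was well above background in 6 and 3 of 16 channels at its 2 probes, and neither passed the filter. The endothelium list (8 genes) stood at 13.34 in that cow against 13.34 to 14.47 in the others, with PECAM1 at 8.06 against 8.44 to 9.91. CDH5, KDR, TEK, EGFL7 and ESAM of that list, named after their values were seen, were also lowest there, and TIE1 and CLDN5 were not. The macrophage list (9 genes) stood at 14.68 against 13.38 to 14.99, and CD68 at 8.42 against 8.47 to 9.68. In the same list C1QB (12.88) and C1QC (11.63), complement genes, were highest of the 8 cows there. CD14 (10.84), CD163 (6.22) and ITGAM (6.35) were lowest there, like CD68. CSF1R, AIF1 and C1QA were below 1 other cow only. These macrophage genes beside CD68 were named after their values were seen. The skeletal muscle list (7 genes) stood at 9.76 against 10.23 to 10.97, and ACTA1 at 8.39 against 7.28 to 8.88. The sums of this list and of the adipocyte list were thus lowest of the 8 cows there. A sum adds linear levels, so bright genes weigh most in it. CKM, the muscle creatine kinase, stood at 5.84 there and at 7.92 or more in the other 7. MB stood at 6.54 against 6.24 to 6.64 and TNNT3 at 6.73 against 6.43 to 7.07, while MYH2, MYH7 and MYL1 were above 1 other cow only. These muscle genes beside ACTA1 were named after their values were seen. The myoepithelium list (7 genes) stood at 16.09 against 15.31 to 16.97. Their part in the results below was not tested.

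**Figure D2:**
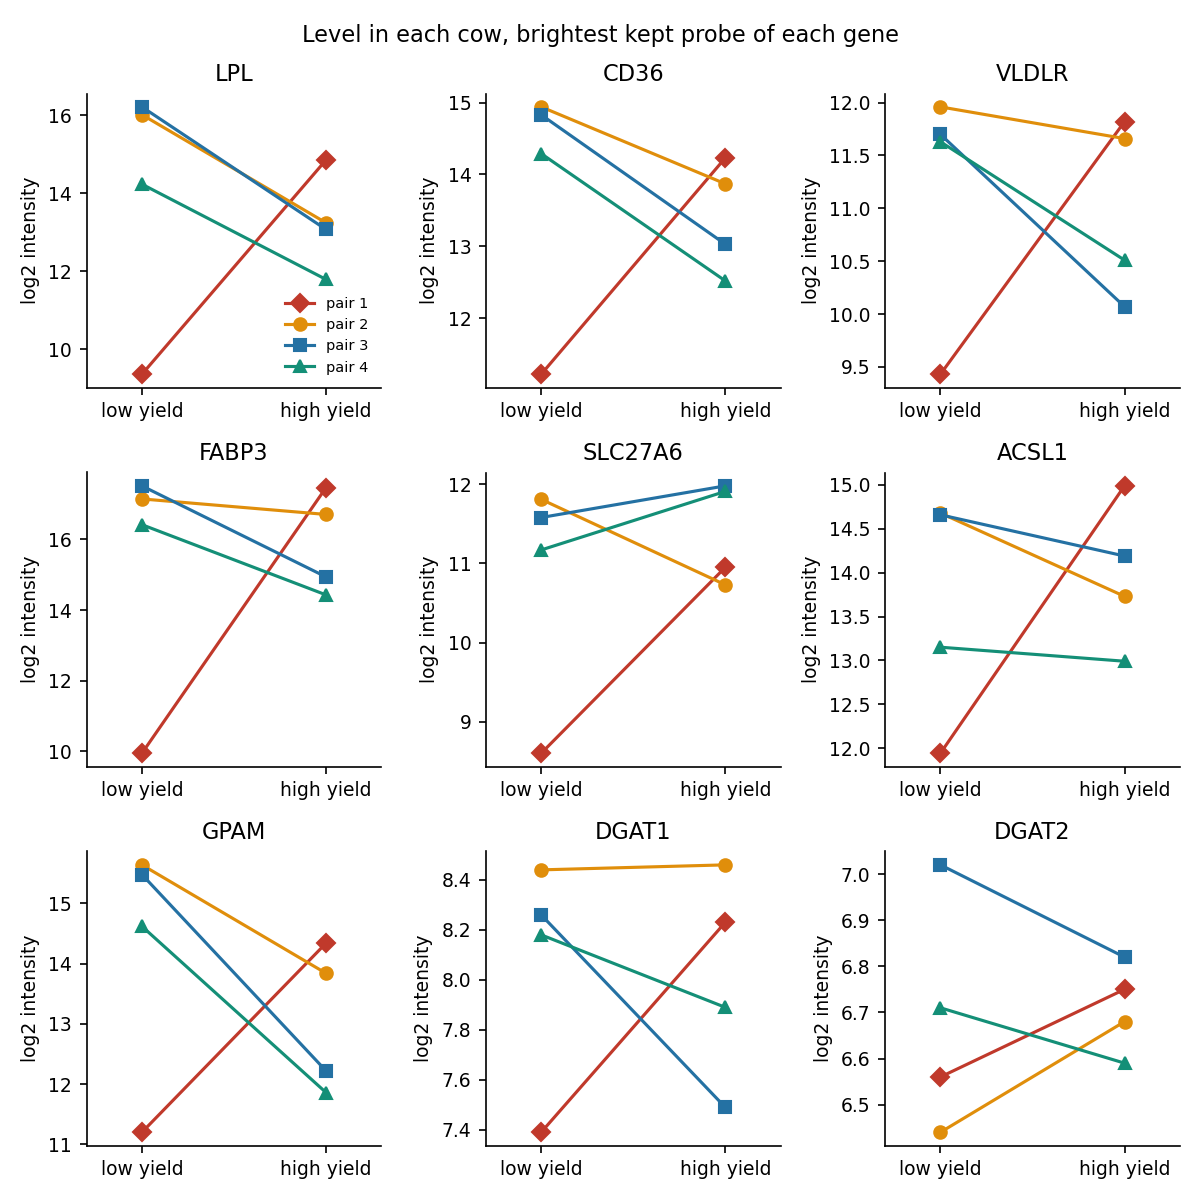
Level in log2 intensity (vertical axis, scaled for each gene) of the brightest kept probe of 9 genes in the low-yield and high-yield cow of each pair, with a line joining the cows of a pair. The pair 1 line runs upward in each panel, from 9.36 to 14.85 for LPL, and the lines of pairs 2 to 4 run downward for LPL, CD36, VLDLR, FABP3, ACSL1 and GPAM.

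LPL codes for lipoprotein lipase, which frees fatty acids from circulating triglyceride. The level of its brightest probe was 14.85, 13.24, 13.07 and 11.79 in high-yield cows, in the order of pairs 1 to 4, and 9.36, 16.01, 16.21 and 14.23 in the low-yield cows. The low-yield cow of pair 1 was 2.43 below the lowest of the others, and 2 of the other low-yield cows were above every high-yield cow, so the groups overlapped. The ratios were 5.49, -2.77, -3.14 and -2.44, with a mean of -0.71 ± 4.15 (SD, n = 4 pairs; limma, adjusted p = 0.914). Over pairs 2 to 4 the mean was -2.78 ± 0.35 (SD, n = 3), with an unadjusted limma p of 4.27e-05 and an adjusted p of 0.386, the smallest unadjusted p among the 27 probes. The second probe of the same transcript had ratios of 4.23, -2.72, -3.15 and -2.44. The dimmer coding probe, whose sequence is given above, had 1.07, -1.15, -0.86 and -0.49, the same signs at smaller size.

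CD36 codes for a membrane receptor that takes up long-chain fatty acids. Its levels were 14.23, 13.87, 13.03 and 12.52 in the high-yield cows and 11.22, 14.94, 14.83 and 14.29 in the low-yield cows. Apart from the low-yield cow of pair 1, each low-yield cow was above every high-yield cow. The ratios were 3.02, -1.07, -1.79 and -1.77, with a mean of -0.41 ± 2.30 (SD, n = 4; limma, adjusted p = 0.912). Pairs 2 to 4 alone gave -1.55 ± 0.41 (SD, n = 3; limma, adjusted p = 0.386). The coding probe printed above gave 2.28, -0.84, -1.75 and -2.33. A probe outside the rule, described as CD36 under another transcript identifier, gave 3.99, -0.11, -1.35 and -1.92.

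VLDLR, the very low density lipoprotein receptor, binds triglyceride-rich particles. Its brightest probe stood at 11.82, 11.66, 10.07 and 10.51 in the high-yield cows and at 9.43, 11.96, 11.70 and 11.63 in the low-yield cows. The low-yield cow of pair 1 was lowest of the 8, and the groups overlapped. The ratios were 2.39, -0.30, -1.62 and -1.12, and their mean was -0.16 ± 1.79 (SD, n = 4; limma, adjusted p = 0.959). Without pair 1 the mean was -1.01 ± 0.67 (SD, n = 3; limma, adjusted p = 0.386). The other 2 probes had the same signs, with pair 1 at 0.61 and 0.24 and the other pairs between -1.16 and -0.10.

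SLC27A6 codes for a fatty acid transport protein with acyl-CoA synthetase activity in its family. Its levels were 10.95, 10.73, 11.98 and 11.91 in the high-yield cows and 8.60, 11.81, 11.58 and 11.17 in the low-yield cows. Unlike LPL and CD36, the high-yield cows of pairs 3 and 4 were above their partners, at ratios of 0.40 and 0.74, while pair 1 stood at 2.35 and pair 2 at -1.08. The mean was 0.60 ± 1.41 (SD, n = 4; limma, adjusted p = 0.785), and without pair 1 it was 0.02 ± 0.97 (SD, n = 3). The other kept probe gave 2.17, -0.82, 0.43 and 0.39, and the probe below the filter lay between -0.08 and 0.00.

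FABP3 codes for the fatty acid binding protein of heart and mammary gland. Its brightest probe stood at 17.47, 16.71, 14.94 and 14.43 in the high-yield cows and at 9.94, 17.15, 17.52 and 16.42 in the low-yield cows. The low-yield cow of pair 1 was 4.50 below the next lowest cow, and the groups overlapped. The ratios were 7.53, -0.44, -2.58 and -1.99, with a mean of 0.63 ± 4.69 (SD, n = 4; limma, adjusted p = 0.936). Over pairs 2 to 4 the mean was -1.67 ± 1.10 (SD, n = 3; limma, adjusted p = 0.386), the opposite sign. The 4 probes ranged from 6.32 to 7.99 in pair 1, from -0.44 to -0.31 in pair 2 and from -2.81 to -1.66 in lactation IV. The probe that spans an intron gave 7.55, -0.36, -2.49 and -1.96. The coding probe nearest the start of the transcript gave the largest ratio of all 27 probes, 7.99 in pair 1.

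ACSL1 codes for a long-chain acyl-CoA synthetase, which activates fatty acids. Its levels were 14.99, 13.73, 14.19 and 12.99 in the high-yield cows and 11.94, 14.68, 14.66 and 13.15 in the low-yield cows. The low-yield cow of pair 1 was again lowest of the 8, and the groups overlapped. The ratios were 3.05, -0.95, -0.47 and -0.16, with a mean of 0.37 ± 1.82 (SD, n = 4; limma, adjusted p = 0.898), and without pair 1 the mean was -0.53 ± 0.40 (SD, n = 3; limma, adjusted p = 0.409), the opposite sign. All 6 probes were above 0 in pair 1, from 0.76 to 3.34, and below 0 in the other pairs, from -1.02 to -0.15. The 2 dye orientations, however, had the same sign in only 15 of 24 combinations of ACSL1 probe and pair. The probe that ends at the stop triplet gave 1.38, -1.02, -0.68 and -0.41.

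GPAM codes for the mitochondrial glycerol-3-phosphate acyltransferase, which adds the first fatty acid to the glycerol backbone. Its levels were 14.34, 13.84, 12.22 and 11.86 in the high-yield cows and 11.20, 15.64, 15.48 and 14.62 in the low-yield cows. The low-yield cows of pairs 2 to 4 were each above every high-yield cow, and that of pair 1 was below all of them. The ratios were 3.14, -1.81, -3.27 and -2.76, with a mean of -1.17 ± 2.94 (SD, n = 4; limma, adjusted p = 0.794). Without pair 1 the mean was -2.61 ± 0.74 (SD, n = 3; limma, adjusted p = 0.386), more than 1.5 times as far from 0. The other 2 probes had means of -1.33 and -0.96 over 4 pairs and of -2.61 and -2.50 over pairs 2 to 4. The probe that ends at the stop triplet gave 3.65, -1.05, -3.09 and -3.36.

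LPIN1 codes for lipin 1, a phosphatase that makes the diacylglycerol to which the last fatty acid is added. It had no probe under the rule. The 3 probes described as lipin 1 gave pair 1 ratios of 2.19, 1.45 and 1.45, pair 2 ratios of -0.23, 0.30 and 0.22, pair 3 ratios of -2.63, -1.26 and -1.20, and pair 4 ratios of -0.93, -0.58 and -0.63. They were above 0 in pair 1 and below 0 in pairs 3 and 4, and their signs differed in pair 2. Their means were -0.40 ± 2.00, -0.02 ± 1.17 and -0.04 ± 1.15 (SD, n = 4; limma, adjusted p = 0.898, 0.992 and 0.987). At each lipin 1 probe the low-yield cow of pair 1 had the lowest level of the 8 cows.

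DGAT1 and DGAT2 code for the diacylglycerol acyltransferases that close the synthesis of triglyceride. DGAT1 stood at 8.23, 8.46, 7.49 and 7.89 in the high-yield cows and at 7.39, 8.44, 8.26 and 8.18 in the low-yield cows, so the groups overlapped. Its ratios were 0.84, 0.02, -0.77 and -0.29, with a mean of -0.05 ± 0.68 (SD, n = 4; limma, adjusted p = 0.969), and pairs 2 to 4 gave -0.35 ± 0.40 (SD, n = 3). Its other kept probe gave 0.39, -0.65, -0.36 and -0.66, and the dim probe lay between -0.16 and 0.17.

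DGAT2 had the smallest spread of the genes. It stood at 6.75, 6.68, 6.82 and 6.59 in the high-yield cows and at 6.56, 6.44, 7.02 and 6.71 in the low-yield cows. Its low-yield cow of pair 1 was not the lowest, unlike the other 8 genes, and its ratios were 0.19, 0.24, -0.19 and -0.12, with a mean of 0.03 ± 0.22 (SD, n = 4; limma, adjusted p = 0.96). The other kept probe lay between -0.26 and 0.11, and the dim one, which shares 40 bases with it, between -0.09 and 0.04. The DGAT2 probes lay near the floor set by the background offset, 5.64 in log2 intensity, where ratios are drawn toward 0.

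How bright a probe was went together with the size of its ratio. The 7 kept probes with a mean log2 intensity under 8 had pair 1 ratios of 0.11 to 1.07, and the 20 brighter ones had 0.84 to 7.99. The dim LPL probe had 1.07 in pair 1 with the offset of 50, 1.66 with an offset of 16 and 2.94 from the scanner software's processed signals, whereas the brightest LPL probe had 5.49, 5.58 and 5.56. In 6 of 9 genes, namely ACSL1, CD36, DGAT1, LPL, SLC27A6 and VLDLR, the probe nearest the start of the transcript, dim ones included, had the smallest ratio in pair 1. A small ratio at a dim probe therefore gives little information on the size of the difference.

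**Figure D3:**
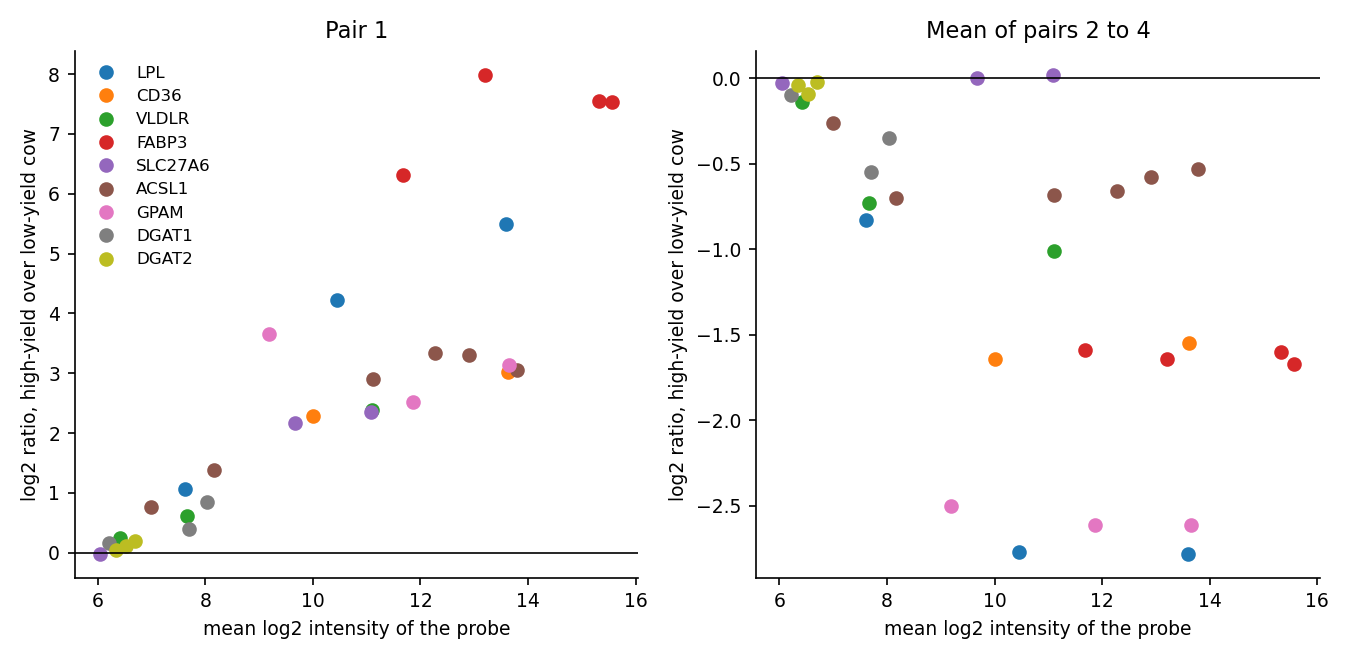
Log2 ratio of the high-yield to the low-yield cow (vertical axes) against the mean log2 intensity of the probe (horizontal axes) for all 30 probes, coloured by gene, in pair 1 (left) and as the mean of pairs 2 to 4 (right). Ratios are near 0 at an intensity of about 6, and away from it LPL and GPAM reach -2.78 and -2.61 on the right, while the 2 kept SLC27A6 probes lie at 0.02 and 0.00.

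The dyes bore on these genes as well. The arrays of a pair differed by the ratio with the high-yield cow in Cy5 minus that with it in Cy3, which would be 0 without a dye effect. This difference had the same sign in 4 of 4 pairs at 18 of 27 probes (66.7%), against 43.2% of all kept probes, and its mean was over 1 at 8 of 27 (29.6%), against 3.62%. For the brightest CD36 probe it was 2.91, 2.58, 2.59 and 1.47 in pairs 1 to 4, and for the FABP3 probe that spans an intron it was 0.26, 3.73, 3.24 and 1.42. In pair 2 that FABP3 probe had a ratio of 1.51 with the high-yield cow in Cy5 and of -2.22 with it in Cy3. For the brightest ACSL1 probe it was 0.91, 1.13, 1.07 and 0.26, larger in pairs 2 to 4 than the size of the ratio itself. The brightest LPL probe was little affected, at 0.46, 0.29, 0.44 and -0.17. The orientations had the same sign at 25, 15, 22 and 20 of 27 probes in pairs 1 to 4, where 68.5%, 55.9%, 70.5% and 51.7% of all kept probes had it. A dye effect cancels in the mean of both arrays only as far as it is equal on them.

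**Figure D4:**
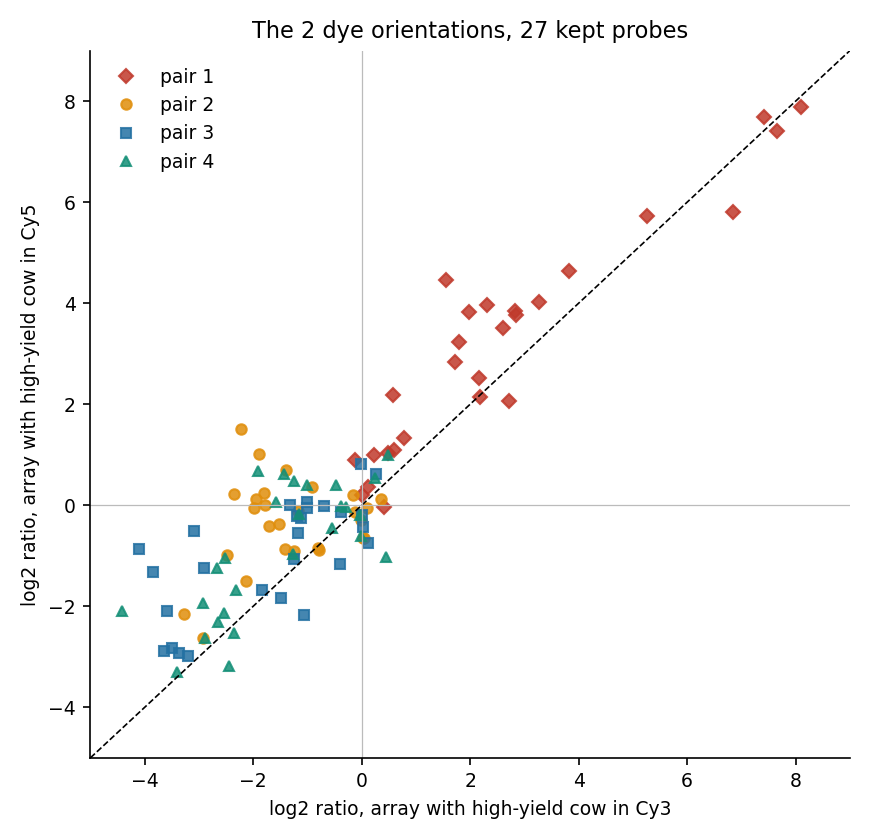
Log2 ratio of the high-yield to the low-yield cow on the array with the high-yield cow in Cy5 (vertical axis) against the same ratio with it in Cy3 (horizontal axis), for the 27 kept probes in 4 pairs, with the dashed line of equal values. Most pair 1 points lie at the upper right, 25 of 27 with 1 sign in both orientations, up to 8.10 with the high-yield cow in Cy3 and 7.88 in Cy5, and many points of pairs 2 to 4 lie above the line.

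The second comparison asked whether the difference between yields was the same in lactation IV as in lactation II. All 27 probes had a lower ratio in lactation IV, where 47.2% of all kept probes did, and their median difference was -1.70, against 0.03 over all kept probes. None passed the limma test (adjusted p between 0.641 and 0.989, with 0% of all kept probes called). At an unadjusted p under 0.05, 2 of 27 were lower in lactation IV, where 4.36% of all kept probes were, namely the GPAM probe that ends at the stop triplet (-4.52, SE 1.60) and a VLDLR probe (-1.12, SE 0.41), and 0 were higher, where 3.29% were. The 3 lipin 1 probes, outside these 27, were also lower in lactation IV at an unadjusted limma p under 0.05. They differed by -2.76 (SE 1.03), -1.79 (SE 0.51) and -1.75 (SE 0.52), with a limma adjusted p of 0.641 for each. The brightest FABP3 probe averaged 3.55 in lactation II and -2.29 in lactation IV, a difference of -5.83 (SE 2.71). For LPL the means were 1.36 and -2.79, and for GPAM 0.66 and -3.01.

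Lactation II held pair 1, whose ratios were above 0, and pair 2, whose ratios were mostly below 0 like those of lactation IV. For LPL these were 5.49 and -2.77 in lactation II and -3.14 and -2.44 in lactation IV. Without pair 2, 10 of 27 probes passed the limma test as lower in lactation IV, where 0.519% of all kept probes did. These were all 4 of FABP3, all 3 of GPAM, 2 of LPL and the brightest of CD36. In that fit lactation II was 1 pair, assumed to vary like the others, and it compares pair 1 with pairs 3 and 4. Pairs 1 and 2 lay on slide 1 and pairs 3 and 4 on slide 2, so slide and lactation cannot be told apart.

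Other genes of the pathway were counted by list, whatever their values. Of 12 kept genes that control lipoprotein lipase or carry fatty acids, 0 passed the limma test in either comparison, and 1 was higher and 1 lower in lactation IV at an unadjusted p under 0.05, where 3.29% and 4.36% of all kept probes were. ANGPTL4, an inhibitor of lipoprotein lipase, had ratios of -1.64, 0.72, 3.34 and 2.30 and differed by 3.28 between lactations (SE 0.90, limma adjusted p = 0.641). These ratios were opposite in sign to those of LPL in 4 of 4 pairs, which was not particular to ANGPTL4. SLC27A1, ACSL5, AGPAT2 and PLPP2 of the other pathway lists, named after their values were seen, had the same signs as ANGPTL4, among others. The share of all kept probes with these signs was not counted. LIPG, the endothelial lipase, had 0.84, -0.07, -1.14 and -1.26, a difference of -1.58 between lactations (SE 0.39, limma adjusted p = 0.641). The list's median was 0.63 in pair 1.

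Of 11 kept transporters and acyl-CoA synthetases beside SLC27A6 and ACSL1, 2 were higher in high-yield cows at an unadjusted limma p under 0.05 and 3 were lower in lactation IV, where 2.51% and 4.36% of all kept probes were, with 0 past the adjusted threshold. SLC27A4, a fatty acid transport protein, was above 0 in 4 of 4 pairs with a mean of 0.50 ± 0.35 (SD, n = 4; limma, adjusted p = 0.73), as was ACSBG1, an acyl-CoA synthetase, at 0.38 ± 0.22 (SD, n = 4; limma, adjusted p = 0.73). ACSM1, a medium-chain acyl-CoA synthetase, had 2.03, 1.61, -1.20 and -1.06, a difference of -2.95 between lactations (SE 0.29, limma adjusted p = 0.496). Here both pairs of lactation II lay above 0. ACSL3, a long-chain acyl-CoA synthetase, had -0.08, 0.11, -0.95 and -0.63, and SLC27A3, a member of the fatty acid transport family, differed by -0.66 between lactations (limma adjusted p = 0.641). The list's median in pair 1 was -0.09, whereas that of the 9 genes from LPL to DGAT2 was 3.02.

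Of 16 kept acyltransferases, phosphatases and enzymes of glycerol phosphate supply, 1 was higher and 1 lower in high-yield cows and 3 were lower in lactation IV at an unadjusted limma p under 0.05, with 0 past the adjusted threshold. Over all kept probes these shares were 2.51%, 3.93% and 4.36%. GPAT4, an acyltransferase of the first step like GPAM, had 4.20, 0.37, -1.61 and -1.27, with levels of 17.57, 16.87, 15.67 and 14.36 in the high-yield cows and 13.37, 16.50, 17.28 and 15.63 in the low-yield cows. GPAT3, of the same step, had 0.54, 0.11, -1.41 and -1.13, and GK, glycerol kinase, had 3.21, 0.55, -2.72 and -1.38. For these 3 genes lactation IV minus II gave -3.73, -1.60 and -3.93 (limma, adjusted p = 0.641 for each). LPIN3, a lipin, was above 0 in 4 of 4 pairs at 0.41 ± 0.20 (SD, n = 4; limma, adjusted p = 0.73), and AGPAT5, an acyltransferase of lysophosphatidic acid, below 0 in 4 of 4 at -0.38 ± 0.26 (SD, n = 4; limma, adjusted p = 0.73).

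Of 12 kept genes of lipid droplets and triglyceride hydrolysis, 2 were higher in high-yield cows at an unadjusted limma p under 0.05, where 2.51% of all kept probes were, and 0 passed the adjusted threshold. PNPLA2, the lipase that begins the breakdown of stored triglyceride, had 0.95, 1.25, -0.07 and 0.94 (mean 0.77 ± 0.58, SD, n = 4; limma, adjusted p = 0.73). PLIN5, a droplet coat protein, had 0.05, 1.49, 0.96 and 0.35 (mean 0.71 ± 0.64, SD, n = 4; limma, adjusted p = 0.73). The median over the list was 0.44 in pair 1. In 4 of 12 genes pair 1 was above 0 and the other 3 pairs below 0, against 9.98% of all kept probes. These were CIDEA, PLIN2, PLIN3 and PNPLA3, named after their values were seen, with pair 1 ratios of 6.65, 3.03, 1.75 and 0.45. In the pathway lists before this one the pattern was held by 2 of 12 genes (FABP4 and LIPG), 0 of 11 and 1 of 16.

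Among the cell type markers, those with an unadjusted limma p under 0.05 in either comparison were KRT19, EPCAM and EHF of luminal epithelium, CLDN5 of endothelium and C1QA and C1QC of macrophages. Those lists held 9, 8 and 9 kept genes. In the lists of 8 adipocyte, 9 milk secretion, 7 skeletal muscle and 7 myoepithelium markers there were 0. At that p, 2.51% of all kept probes were higher in high-yield cows, 3.29% higher in lactation IV and 4.36% lower in lactation IV. KRT19, an epithelial keratin, was above 0 in 4 of 4 pairs at 1.28 ± 0.79 (SD, n = 4; limma, adjusted p = 0.73). EPCAM differed by 1.10 between lactations and EHF by -0.92, and C1QA by 1.93 and C1QC by 1.57 (limma, adjusted p = 0.641 for each). CLDN5 was above 0 in 4 of 4 pairs at 0.54 ± 0.47 (SD, n = 4; limma, adjusted p = 0.73).

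The centred levels of the 9 genes, averaged, were -2.39, 1.10, 1.12 and 0.36 for low yield, in the order of pairs 1 to 4, and 0.72, 0.20, -0.37 and -0.74 for high yield. Over the 8 cows the genes most like this pattern, of 12342 compared, were MUC15 (Pearson r = 0.986), a membrane mucin found on milk fat globules, NDUFB3 (0.986), a subunit of mitochondrial complex I, ATP13A4 (0.985), a P-type ATPase, PTHLH (0.982), the parathyroid hormone-like hormone, and SRPRA (0.982), a subunit of the signal recognition particle receptor. In 249 of those genes r was over 0.9. The points are cows that share arrays in pairs, and the low-yield cow of pair 1 lies far from the rest. Without that cow the 5 values of r were 0.962, 0.961, 0.952, 0.946 and 0.978, over 7 cows.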

How the data were processed

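Mammary RNA of 8 cows was measured on 8 Agilent bovine arrays, with 1000 ng of RNA per label. Per the file headers, the deposited scanner files hold intensity values for each spot and its local background, and a log10 ratio of red over green, extracted with Feature Extraction 10.10.1.1. The authors also deposited a table that proved to hold log2 ratios of high over low yield; how it was made is not given in the sources used here. It served as an alternative, and its columns for array 1 of pairs 2 and 3 are strongly shrunken, with slopes of 0.294 and 0.287 on the ratios used here.

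Ratios were computed with limma 3.58.1 in R 4.3.3 from mean spot and median local background intensities. Normexp took its noise from the 153 negative control spots, with an offset of 50; loess followed within each array. Between 6 and 118 spots per array marked as outliers were dropped, and 0 spots were saturated. Spots of a probe and the 2 arrays of a pair were averaged. A probe was kept if 6 or more of the 8 channels of one yield group were well above background. The mean of 4 pairs was tested against 0, and lactation IV against II (2 pairs each), two-sided, with limma's eBayes and Benjamini-Hochberg adjustment over 29867 probes at 0.05. The number of cow pairs, 4 in all and 2 per lactation, limits the precision. Replicates are separate cow pairs by the labels; same-numbered cows share arrays, so the pair is the block.

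Cow levels came from quantile-normalised mean intensities and the ratios. Genes were named through an assembly ARS-UCD2.0 table, used for names alone, with Python 3.11.15. All probes of the listed genes are named, each gene being represented by its brightest kept probe. From the other lists, genes with an unadjusted p under 0.05 in either comparison are named, at most 5 per list, with 6 defining markers and the 5 genes most alike over cows. Further genes of these lists are marked as named after their values were seen. The genes and lists were chosen with earlier results of these data known. The scripts were tested on simulated data.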

Additional observations from a re-analysis of the deposited data

Results flagged for a closer look

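Of 27 groups of 4 values examined (pair ratios, high-yield cows and low-yield cows for 9 genes), 4 had 1 value far from the others by Dixon's criterion, where chance marks about 1 in 20. All 4 were values of pair 1. Among low-yield cows these were the FABP3 level of 9.94, against 16.42 to 17.52 in the remaining 3, and the VLDLR level of 9.43, against 11.63 to 11.96. Among pair ratios they were the LPL ratio of 5.49, against -3.14 to -2.44 in the other pairs, and the CD36 ratio of 3.02, against -1.79 to -1.07.

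At the brightest probe of DGAT1 and of DGAT2 both pairs of lactation II had a ratio above 0 and both pairs of lactation IV one below 0. The difference between lactations was -0.96 for DGAT1 (limma, adjusted p = 0.647) and -0.37 for DGAT2 (limma, adjusted p = 0.708), so neither passed the test. The pair 2 ratio of DGAT1 was 0.02 at that probe and -0.65 at its other kept probe, and slide and lactation cannot be told apart.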

How the results depend on the processing

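For yield, 0 probes passed the adjusted limma test over the 4 pairs and under each alternative run, with 652 (1 probe per gene) to 5101 probes at an unadjusted p under 0.05. With no replicate block (4 unpaired cows against 4), 0 probes were called, and 0 without the low-yield cow of pair 1; pairing thus changed no call. For lactation the count was 0, apart from 179 without pair 2, so leaving out a pair gave 0 to 179. Of the 9 genes, GPAM alone kept its sign under all 18 alternatives. Leaving out a pair moved the mean from -1.67 to 1.70 for FABP3, -0.53 to 0.81 for ACSL1, -1.55 to 0.06 for CD36, -2.78 to 0.10 for LPL, -1.01 to 0.33 for VLDLR, 0.02 to 1.16 for SLC27A6, -0.35 to 0.19 for DGAT1 and -0.04 to 0.10 for DGAT2; the lowest of these came without pair 1, except for DGAT2 (without pair 2), and the highest without pair 2 (ACSL1, SLC27A6) or pair 3 (the others). For GPAM the range was -2.61 to -0.48, the lower without pair 1.

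Signs also turned with the saddle-point normexp (VLDLR 0.02, DGAT1 0.07), the authors' values (VLDLR 0.03, DGAT1 0.10), the high-yield cow in Cy5 alone (CD36 0.79, DGAT2 -0.13) or in Cy3 alone (FABP3 -0.10, ACSL1 -0.05, VLDLR 0.11, DGAT1 0.19). They turned without array 1 of pairs 2 and 3 (FABP3 -0.05, VLDLR 0.06, DGAT1 0.06) and in the unpaired fit that dropped pair 1's low-yield cow (FABP3 -1.14, ACSL1 -0.19, SLC27A6 -0.13, DGAT2 -0.01). The cause was not tested. Adjusted p stayed at 0.381 or above for these genes under each alternative. Low signal limits DGAT1, DGAT2 and the dim probes of the other genes.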
